A study of Mus musculus with 8 samples.

Results

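The ligands and receptors of axon guidance were compared between CD249+ and CD249− cells sorted from mouse lung, which the sample titles call fibroblasts. They were 67 of the 25509 mouse genes in the deposited count table and were picked by a rule on gene symbols. The rule was chosen with earlier results of these data known. Of these, 34 encode ligands (20 semaphorins, 8 ephrins, 3 Slits and 3 netrins) and 33 encode receptors (14 Eph receptors, 9 plexins, 4 Robos, 4 Unc5 receptors and 2 neuropilins). A filter on low counts, which takes account of the group, left 57 of the 67 for testing. The 10 others are named further on with their highest counts.

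Bulk RNA was sequenced from 8 libraries, 4 of CD249+ cells and 4 of CD249− cells. Both fractions came from the same lungs, those of wild-type C57Bl6/J mice labelled 2, 7, 8 and 10, whose age, sex and treatment are not given in the sources used here. Cells lacking CD45, CD326 and CD31, the surface markers of leukocytes, epithelium and endothelium, were divided by CD249, the aminopeptidase encoded by Enpep, and equal cell numbers were taken per lung. Values below are CPM, the estimated counts relative to the scaled library total, after TMM scaling, in the order of mice 2, 7, 8 and 10 unless stated otherwise. A gene was called higher or lower at an adjusted p under 0.05 in edgeR's quasi-likelihood test, with adjustment over all 14524 genes tested, and each fold change is log2 of CD249+ over CD249−.

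Guidance cues steer growing axons by attraction or repulsion, and the same molecules position migrating cells and shape blood vessels and branching epithelia in organs such as the lung. Slits act through Robo receptors, netrins through Dcc, neogenin and Unc5 receptors, and semaphorins through plexins, with neuropilins as co-receptors for the secreted class. Ephrins are held at the cell surface and signal both through Eph receptor tyrosine kinases on the neighbouring cell and back into the cell that carries them.

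The sequences upstream of 2 ligand and receptor pairs are shown first, because these pairs stand for the opposite directions described below: Slit2 and Robo2 were called higher in CD249+ cells, and Efnb2 and Ephb4 were called lower. The choice was made after their values were seen. Each run is the 250 bases before the transcript start in RefSeq's table for GRCm38.p6, read 5′ to 3′ on the gene's strand, with capitals marking matches, on either strand, to 3 core promoter motifs. These were the TATA box with the letters TATAAA, the CCAAT box, and the GC box with the letters GGGCGG. The Slit2 run is chr5:47982905-47983154 on the plus strand, and its last 17 bases lie past the gene's 5′ end in GENCODE M21. The Robo2 run, for 1 of the gene's 3 windows, is chr16:74411826-74412075 on the minus strand. The Efnb2 run is chr8:8661243-8661492 on the minus strand, and the Ephb4 run is chr5:137349859-137350108 on the plus strand.
Slit2: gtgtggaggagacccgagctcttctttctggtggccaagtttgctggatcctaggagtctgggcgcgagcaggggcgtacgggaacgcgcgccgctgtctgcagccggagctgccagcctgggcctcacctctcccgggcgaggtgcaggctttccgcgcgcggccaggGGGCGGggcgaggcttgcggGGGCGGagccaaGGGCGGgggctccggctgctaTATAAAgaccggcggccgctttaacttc
Robo2: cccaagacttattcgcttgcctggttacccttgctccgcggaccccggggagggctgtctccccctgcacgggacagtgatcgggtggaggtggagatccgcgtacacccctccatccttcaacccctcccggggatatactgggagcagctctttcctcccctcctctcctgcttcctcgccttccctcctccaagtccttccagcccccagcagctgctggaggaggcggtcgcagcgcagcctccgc
Efnb2: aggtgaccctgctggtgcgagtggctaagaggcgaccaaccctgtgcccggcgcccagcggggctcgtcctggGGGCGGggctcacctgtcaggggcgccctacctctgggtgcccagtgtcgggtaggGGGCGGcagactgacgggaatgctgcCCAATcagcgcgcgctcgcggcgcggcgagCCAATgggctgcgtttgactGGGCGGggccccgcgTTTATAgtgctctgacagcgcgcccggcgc
Ephb4: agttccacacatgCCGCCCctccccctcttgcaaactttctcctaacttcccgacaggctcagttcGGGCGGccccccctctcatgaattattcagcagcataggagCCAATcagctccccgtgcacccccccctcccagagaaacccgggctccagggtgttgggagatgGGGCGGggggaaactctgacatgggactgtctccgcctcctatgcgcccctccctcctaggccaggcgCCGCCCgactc
The Slit2 run held 1 TATA box, 28 bases before the start, and 3 GC boxes. The Efnb2 run held 1 TATA box on the opposite strand (TTTATA), 2 CCAAT boxes and 3 GC boxes. In the Ephb4 run there were 1 CCAAT box and 4 GC boxes, some of them on the opposite strand (CCGCCC), while none of these letters occurred in the Robo2 run. RefSeq's table had a window for 58 of the 67 genes, 74 windows in all. GC boxes were in 70.3% of those windows and in 32.7% of all 32851 windows in the table, CCAAT in 27.0% and 33.8%, and TATAAA in 2.70% and 12.4%. The core CGGAAG, bound by ETS factors, was in 8.11% of the guidance windows and 13.6% of all. Median GC content was 64.4% over the guidance windows and 52.4% over all. These matches describe letters in a window and are not evidence of binding.

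Enpep, which encodes the sorted antigen, had 239.6, 222, 175 and 329 CPM in CD249+ libraries, against 7.54, 5.99, 5.13 and 17.3 CPM in CD249− libraries. Its log2 fold change was 4.74 (SE 0.41, adjusted p = 3.11e-05), so the fractions followed their labels. Library totals were 23011383 to 31906414 estimated counts and did not separate the groups (two-sided exact permutation test, p = 0.429). Pecam1, which encodes CD31, had 959, 448, 581 and 457 CPM in CD249+ libraries, against 2031, 1524, 1612 and 1499 CPM in CD249− libraries. It was thus well above 0 in both fractions of a sort gated against CD31, and it was called lower in CD249+ (−1.45, SE 0.25, adjusted p = 0.0017). Ptprc, which encodes CD45, had 43.4 to 95.7 CPM in CD249+ libraries and 58.3 to 199 CPM in CD249− libraries and was not called (−0.96, adjusted p = 0.0635; 0.0126 with mouse as a block). Epcam, which encodes CD326, had 2.27 to 14.4 CPM in CD249+ libraries and 5.61 to 9.55 CPM in CD249− libraries and was not called (0.10, adjusted p = 0.894). Other epithelial markers did move: of 11 tested, the surfactant genes Sftpa1 (3.56), Sftpb (3.77) and Sftpc (3.59) were higher in CD249+ and Krt19 (−0.70) was lower, all 4 named after their values were seen. Sftpc had 319.9, 483, 781 and 7551 CPM in CD249+ libraries, against 126, 58.6, 125.5 and 448 CPM in CD249− libraries. Without the CD249+ library of mouse 10 these 3 surfactant genes were at 1.48 to 1.54 and not called (adjusted p = 0.0786 to 0.112). Their calls, like that of Krt19, were also lost when some other libraries were left out.

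All 20 general endothelial markers, which are the endothelial markers meant below, were lower in CD249+. Their median log2 fold change was −1.46, with a range of −2.05 to −1.21. None was at 0 in all libraries, and their summed level was 6359 to 12340 CPM in CD249+ libraries and 21020 to 27550 CPM in CD249− libraries. Of 5 arterial endothelial markers 4 were lower and 1, Gja5 (1.76), was higher. Of 6 lymphatic endothelial markers 2 were lower and 4 were not called. Of 12 pan-fibroblast genes, among them 6 collagen genes, 11 were higher in CD249+ and their sum was 16370 to 28670 CPM, against 5665 to 13810 CPM in CD249− libraries. All 12 alveolar fibroblast markers, all 9 ductal myofibroblast markers, 10 of 11 pericyte markers and 7 of 8 smooth muscle markers were higher as well. Of 10 adventitial fibroblast markers, 1 was higher and 2 were lower. In each CD249− library the endothelial sum was above the pan-fibroblast sum, and in each CD249+ library it was below. The lists differ in length, and such sums do not measure shares of cells. Endothelium was not the only other signal on the CD249− side. Of 8 mesothelial markers 4 were lower and 1, Upk1b (2.82), was higher, with a sum of 74.5 to 108 CPM in CD249+ libraries and 62.3 to 209.7 CPM in CD249− libraries. Of 8 red cell and platelet markers 5, all from platelets, were lower, with a sum of 27.8 to 220.4 CPM in CD249+ libraries and 109 to 794 CPM in CD249− libraries. None of 16 tested leukocyte markers was called. Their median was −0.75, and their sum was 1783 to 4129 CPM in CD249+ libraries and 2389 to 4164 CPM in CD249− libraries, so the sums overlapped. Markers of Schwann cells and neurons summed to 1.92 to 7.502 CPM in CD249+ libraries and 1.53 to 8.27 CPM in CD249− libraries, and the neuronal genes Elavl3 and Elavl4 were at 0 in all 8. The part of the makeup of the fractions in the values that follow was not tested, and in such bulk libraries fewer cells of a type and less RNA per cell cannot be told apart.

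Guidance genes differed between the fractions in both directions. Of the 57 tested, 22 were higher in CD249+ cells, 17 were lower and 18 were not called. The called share was 68.4%, beside 30.8% of all genes tested. Higher calls made up 38.6% of the guidance genes and 16.9% of all genes, and lower calls 29.8% and 13.9%. The libraries of the 2 groups did not overlap for 39 of the 57, beside 33.6% of all genes. The median log2 fold change was 0.54 over the guidance genes and −0.02 over all genes. All 22 higher genes were higher in each of the 4 mice, and all 17 lower genes were lower in each. With mouse as a block, 22 were higher and 19 lower, beside 2809 and 2489 of all genes. With library size as the only scaling, 21 were higher and 20 lower, while all genes then split into 2106 higher and 2689 lower, against 2455 and 2013 with TMM.

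**Figure D1:**
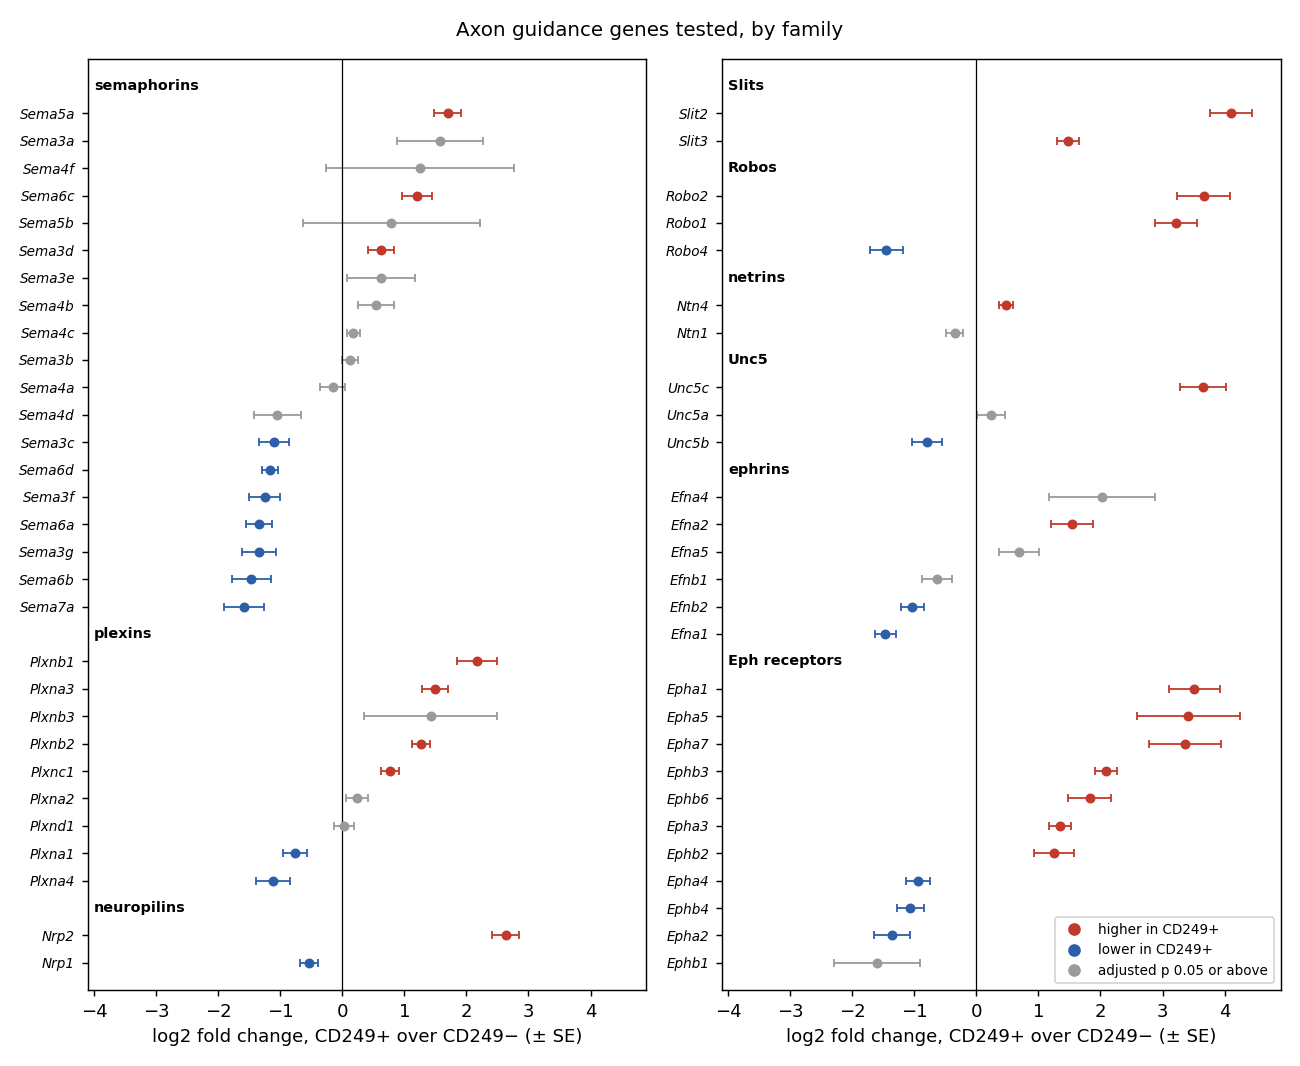
Log2 fold change of CD249+ over CD249− (horizontal axis, points with bars of 1 SE from the edgeR fit) for the 57 tested guidance genes, grouped by family. Slits, Robo1, Robo2, Unc5c and most Eph receptors lie right of 0, whereas most called semaphorins lie left of it.

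Receptors and ligands were counted apart. Among 28 tested receptors 15 (53.6%) were higher and 8 (28.6%) lower, with a median log2 fold change of 1.257. Among 29 tested ligands 7 (24.1%) were higher and 9 (31%) lower, with a median of 0.18. Over all genes tested, 16.9% were higher and 13.9% lower. The difference between receptors and ligands was not tested. Called increases ranged from 0.48 to 4.10 and called decreases from −1.58 to −0.53, so the decreases spanned a narrower range of sizes.

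The mice differed in haemoglobin transcripts, which reached 129 to 502 CPM in libraries of mice 7 and 8 and 12.1 to 26.8 CPM in those of mice 2 and 10. Within mice 7 and 8 alone, 18 guidance genes were higher and 18 lower, beside 1777 and 1251 of all genes. Within mice 2 and 10 alone, 9 were higher and 2 lower, beside 570 and 98 of all genes. None of the 39 called guidance genes changed direction in either pair of mice. This could hardly come out otherwise, since each had the same direction in all 4 mice.

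Slit2 and its receptors Robo1 and Robo2 had the largest differences among ligands and Robos. Slit2, a secreted repellent on chromosome 5 (GRCm38 47983138 to 48307733), had 141.9, 147, 124 and 148.5 CPM in CD249+ libraries, against 12.02, 3.08, 8.76 and 8.76 CPM in CD249− libraries. The CD249+ libraries were close to each other and all far above the CD249− libraries, with a log2 fold change of 4.10 (SE 0.34, adjusted p = 2.56e-05). Slit3, a related ligand, had 278, 389.7, 295 and 389 CPM in CD249+ libraries, against 87.1, 128, 121 and 148.5 CPM in CD249− libraries. It was abundant in both fractions, the libraries did not overlap, and the change was smaller, at 1.48 (SE 0.18, adjusted p = 0.000253). Slit1 was not tested, with a highest count of 4.

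The receptors split by type. Robo2 had 74.7, 63.9, 81.5 and 102 CPM in CD249+ libraries, against 3.42, 2.56, 9.80 and 9.71 CPM in CD249− libraries (log2 fold change 3.66, SE 0.43, adjusted p = 0.000196). Robo1 had 37.9, 41.7, 26.9 and 35.1 CPM in CD249+ libraries, against 2.79, 4.20, 1.88 and 6.21 CPM in CD249− libraries (3.22, SE 0.34, adjusted p = 0.00011). For both, every CD249+ library exceeded every CD249− library. Robo4, the Robo known from endothelium, had 186, 81.7, 101 and 95.6 CPM in CD249+ libraries, against 423, 259, 291 and 296 CPM in CD249− libraries. It was lower in CD249+ without overlap, at −1.45 (SE 0.26, adjusted p = 0.00235), within the −2.05 to −1.21 of the endothelial markers. The part of the endothelial signal in it was not tested.

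Among netrins and their receptors, Unc5c stood out by size. Unc5c encodes a receptor for repulsive netrin signals and had 24.8, 21.8, 27.9 and 24.5 CPM in CD249+ libraries, against 0.963, 1.37, 3.59 and 1.98 CPM in CD249− libraries. The libraries did not overlap and the log2 fold change was 3.66 (SE 0.37, adjusted p = 8.53e-05). Unc5b, known from endothelial sprouts, had 12.3, 13.9, 9.41 and 7.37 CPM in CD249+ libraries, against 20.3, 19.9, 21.9 and 12.5 CPM in CD249− libraries. It was called lower (−0.79, adjusted p = 0.0345) although the groups overlapped, and the call was lost in 10 of 22 alternative settings. Unc5a had 18.6 to 31.3 CPM in CD249+ libraries and 15.0 to 28.9 CPM in CD249− libraries and was not called.

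The netrins themselves changed less. Ntn4, a netrin of basement membranes, had 184, 260.2, 229 and 203 CPM in CD249+ libraries, against 169, 154, 161 and 146 CPM in CD249− libraries. Its log2 fold change was 0.48 (SE 0.12, adjusted p = 0.0123), with no overlap, but the adjusted p was 0.0552 to 0.0716 without mouse 7, 8 or 10. Ntn1, the classical netrin and ligand of Unc5c, had 136, 178, 185 and 152 CPM in CD249+ libraries, against 202, 229, 170.1 and 229 CPM in CD249− libraries. The groups overlapped and Ntn1 was not called (−0.35, adjusted p = 0.0743; 0.0415 without the CD249− library of mouse 8).

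Of 19 semaphorins tested, 3 were higher in CD249+, 7 were lower and 9 were not called. The lower share was 36.8%, beside 13.9% of all genes tested. The higher share was 15.8%, near the 16.9% of all genes. Of the 7 secreted class 3 genes 1 was higher and 3 were lower, and of the 4 transmembrane class 6 genes 1 was higher and 3 were lower. None of the 5 tested class 4 genes was called, with Sema4d called lower once mouse was a block. The classes were not tested against each other.

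The most abundant class 3 genes were lower in CD249+ cells. Sema3c had 811, 424.5, 685 and 479.7 CPM in CD249+ libraries, against 1572, 945, 1480.0 and 1142 CPM in CD249− libraries (log2 fold change −1.10, SE 0.24, adjusted p = 0.00608). Sema3f had 287, 126, 167 and 163 CPM in CD249+ libraries, against 578, 399.5, 400.1 and 391 CPM in CD249− libraries (−1.25, SE 0.25, adjusted p = 0.00368). Sema3g, known from arterial endothelium, had 147, 62.3, 75.4 and 73.4 CPM in CD249+ libraries, against 305, 175, 202 and 224.5 CPM in CD249− libraries (−1.34, SE 0.28, adjusted p = 0.00478). For all 3 genes the groups did not overlap, and mouse 2 was the highest of its group in both fractions. Sema3d went the other way, with 29.3, 47.3, 58.9 and 35.8 CPM in CD249+ libraries, against 23.9, 29.7, 30.9 and 26.5 CPM in CD249− libraries. The groups overlapped, the log2 fold change was 0.63 (SE 0.20, adjusted p = 0.0419), and the call was lost in 12 of 22 alternative settings. Sema3a (1.58), Sema3b (0.13) and Sema3e (0.62) were not called, but Sema3e was at 1.47 (adjusted p = 0.0268) without the CD249− library of mouse 10.

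Class 6 semaphorins, which act as membrane ligands for class A plexins, were also mainly lower. Sema6a had 199, 100.1, 114 and 111.5 CPM in CD249+ libraries, against 402, 291, 329 and 308 CPM in CD249− libraries (−1.34, SE 0.22, adjusted p = 0.00125). Sema6d had 90.9, 63.3, 69.8 and 64.4 CPM in CD249+ libraries, against 162, 155, 149.7 and 180.4 CPM in CD249− libraries (−1.17, SE 0.13, adjusted p = 0.000156). Sema6b had 14.8, 6.34, 11.2 and 5.24 CPM in CD249+ libraries, against 34.0, 25.4, 22.6 and 21.9 CPM in CD249− libraries (−1.46, SE 0.32, adjusted p = 0.0068). None of these overlapped between groups. Sema6c alone of the class was higher in CD249+, with 22.1, 28.4, 20.2 and 21.4 CPM, against 7.64, 8.27, 15.5 and 8.61 CPM in CD249− libraries. Its log2 fold change was 1.205 (SE 0.24, adjusted p = 0.00431), without overlap.

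Sema5a, a transmembrane semaphorin with thrombospondin repeats, was the most increased semaphorin among those called. It had 42.9, 53.2, 52.6 and 55.1 CPM in CD249+ libraries, against 15.9, 13.8, 10.2 and 22.9 CPM in CD249− libraries (1.70, SE 0.22, adjusted p = 0.000377). Sema7a, which is anchored to the membrane by a lipid, was the most decreased, with 12.9, 6.69, 8.07 and 4.59 CPM in CD249+ libraries, against 31.1, 26.1, 23.6 and 15.7 CPM in CD249− libraries (−1.58, SE 0.32, adjusted p = 0.00431). In neither case did the groups overlap. Among class 4 genes, Sema4d, known from lymphocytes, had 8.36 to 16.3 CPM in CD249+ libraries and 9.66 to 39.0 CPM in CD249− libraries. It was not called (−1.04, adjusted p = 0.0598), but its adjusted p was 0.0466 with mouse as a block and 0.00382 without the CD249− library of mouse 2. Sema4a (−0.16), Sema4b (0.54), Sema4c (0.18), Sema4f (1.25) and Sema5b (0.79) were not called, and the last 2 each had at least 1 library at 0.

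Receptors for semaphorins were divided as well. Nrp2, the co-receptor paired with Sema3f, had 120.0, 101, 96.1 and 134.5 CPM in CD249+ libraries, against 19.1, 25.1, 12.5 and 16.2 CPM in CD249− libraries. Every CD249+ library was above every CD249− library, and the log2 fold change was 2.63 (SE 0.21, adjusted p = 2.1e-05). Nrp1, the co-receptor of Sema3a and of VEGF, had 835, 642, 640.4 and 625 CPM in CD249+ libraries, against 1227, 904, 855 and 984 CPM in CD249− libraries. It was lower without overlap, at −0.53 (SE 0.15, adjusted p = 0.0231). The call for Nrp1 was lost, at an adjusted p of 0.0526 to 0.113, when mouse 7, 8 or 10 was left out, when the CD249+ fraction of any of these was, or when the CD249− fraction of mouse 2 was.

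Of the 3 class B plexins, 2 were higher in CD249+ cells, Plxnb1 and Plxnb2, which encode receptors of class 4 semaphorins, and 1 was not called. Plxnb2 had 181, 236, 239 and 281 CPM in CD249+ libraries, against 82.7, 108, 95.2 and 103 CPM in CD249− libraries (1.27, SE 0.14, adjusted p = 0.000166). Plxnb1 had 13.1, 14.9, 18.5 and 28.02 CPM in CD249+ libraries, against 4.22, 5.74, 2.42 and 4.14 CPM in CD249− libraries (2.17, SE 0.32, adjusted p = 0.00077). Neither overlapped, and Plxnb3, at 0 to 1.59 CPM in CD249+ libraries and 0.175 to 0.751 CPM in CD249− libraries, was not called.

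Class A plexins, which signal for class 3 semaphorins together with neuropilins and directly for class 6, went both ways. Plxna3 had 15.1, 16.0, 19.9 and 12.6 CPM in CD249+ libraries, against 6.38, 4.38, 6.17 and 5.73 CPM in CD249− libraries (1.49, SE 0.21, adjusted p = 0.000563). Plxna4 had 41.96, 25.4, 29.9 and 15.2 CPM in CD249+ libraries, against 66.2, 75.5, 52.3 and 48.5 CPM in CD249− libraries (−1.11, SE 0.27, adjusted p = 0.0122). Plxna1 had 257, 166, 161 and 190.5 CPM in CD249+ libraries, against 436.5, 264, 337 and 280.0 CPM in CD249− libraries (−0.77, SE 0.20, adjusted p = 0.0144). The groups were apart for all 3, with the call for Plxna4 lost without mouse 7 and that for Plxna1 lost without mouse 8. Plxna2 had 43.0 to 71.7 CPM in CD249+ libraries and 37.3 to 54.5 CPM in CD249− libraries and was not called (0.24).

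Plxnc1, the receptor of Sema7a, was higher in CD249+ where Sema7a was lower. It had 64.7, 63.0, 59.4 and 77.0 CPM in CD249+ libraries, against 48.8, 37.4, 35 and 33.5 CPM in CD249− libraries, without overlap (0.77, SE 0.14, adjusted p = 0.00252). Plxnd1, the receptor of Sema3e and a plexin known from vessels, had 144, 143, 103 and 132 CPM in CD249+ libraries, against 138, 158, 97.8 and 121 CPM in CD249− libraries. Its groups overlapped and its log2 fold change was 0.02 (SE 0.16, adjusted p = 0.931). The part of the endothelial signal in the Plxnd1 value was not tested.

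Eph receptors had the highest called share of the larger families, at 90.9% beside 30.8% of all genes tested. Of 11 tested, 7 were higher, 3 were lower and 1 was not called, with a median log2 fold change of 1.35. The ephrins, their ligands, had 1 higher, 2 lower and 3 not called among 6 tested. For ephrins the higher share was 16.7% and the lower share 33.3%, beside 16.9% and 13.9% of all genes.

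Of the 6 tested class A receptors 4 were higher and 2 were lower. Epha1 had 66.5, 53.4, 29.4 and 112 CPM in CD249+ libraries, against 3.75, 7.92, 4.67 and 6.51 CPM in CD249− libraries (3.51, SE 0.41, adjusted p = 0.000188). The groups were apart, but Epha1 was 1 of 2 guidance genes with counts that were not whole. It shares 236 exon bases with Zyx on the opposite strand, which averaged 672 ± 178 CPM in CD249+ libraries and 249 ± 52.1 CPM in CD249− libraries (SD, n = 4 each), and these libraries do not mark strand. How much of the Epha1 count came from Zyx transcripts was not tested. Epha7 had 6.03, 3.15, 5.38 and 6.99 CPM in CD249+ libraries, against 0.133, 0.876, 0.667 and 0.420 CPM in CD249− libraries (3.36, SE 0.58, adjusted p = 0.00183). Epha3 had 37.1, 35.8, 39.9 and 47.1 CPM in CD249+ libraries, against 11.4, 14.0, 18.6 and 18.7 CPM in CD249− libraries (1.35, SE 0.18, adjusted p = 0.000412). Both were clear of overlap. Epha5 was rare, at 0.743 to 2.74 CPM in CD249+ libraries and 0.0350 to 0.360 CPM in CD249− libraries (3.42, SE 0.83, adjusted p = 0.0109). Its counts in CD249− libraries were 2, 1, 5 and 12, so it passed the low-count filter through its CD249+ libraries. The counts of higher genes include it. Its value was 4.13 without the CD249− library of mouse 10, and its call was lost without mouse 8.

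Epha2 and Epha4 were lower in CD249+. Epha2, a receptor of ephrin-A1 common in epithelium and endothelium, had 34.5, 12.8, 26.6 and 31.96 CPM in CD249+ libraries, against 76.6, 44.6, 68.7 and 80.7 CPM in CD249− libraries (−1.35, SE 0.29, adjusted p = 0.00627). Its ligand Efna1 was lower too, with 95.0, 80.4, 63.8 and 72.0 CPM in CD249+ libraries, against 228, 254.5, 156 and 223 CPM in CD249− libraries (−1.47, SE 0.17, adjusted p = 0.000188). Epha4, a receptor that binds ephrins of both classes, had 25.2, 14.3, 24.6 and 18.0 CPM in CD249+ libraries, against 40.0, 36.1, 46.3 and 34.6 CPM in CD249− libraries (−0.94, SE 0.19, adjusted p = 0.00451). No CD249+ library reached a CD249− library for any of the 3. Efna2 was the 1 ephrin called higher by edgeR, with 7.15, 7.04, 10.2 and 8.53 CPM in CD249+ libraries, against 1.66, 3.12, 4.34 and 2.25 CPM in CD249− libraries (1.54, SE 0.34, adjusted p = 0.00656). Efna5 had 3.66 to 6.10 CPM in CD249+ libraries and 1.96 to 3.69 CPM in CD249− libraries and was not called (0.69, adjusted p = 0.144). Efna4 had 2.02 to 2.98 CPM in CD249+ libraries and 0 to 0.900 CPM in CD249− libraries and was not called (2.02, adjusted p = 0.102). It was called by the DESeq2 Wald test (adjusted p = 0.0269), by limma-voom (0.0483) and without the CD249− library of mouse 8 (0.0384).

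Of the 5 class B receptors 3 were higher, 1 was lower and 1 was not called. Ephb3 had 80.9, 69.8, 101.7 and 99.1 CPM in CD249+ libraries, against 18.1, 18.9, 18.7 and 27.0 CPM in CD249− libraries (2.09, SE 0.17, adjusted p = 2.58e-05). Ephb4, known as the Eph receptor of venous endothelium, had 381, 217, 254 and 248 CPM in CD249+ libraries, against 795, 463, 501 and 536.5 CPM in CD249− libraries (−1.06, SE 0.22, adjusted p = 0.00458). Its partner Efnb2, known from arterial endothelium, had 284, 158, 205.5 and 171 CPM in CD249+ libraries, against 482, 371, 424 and 398 CPM in CD249− libraries (−1.03, SE 0.18, adjusted p = 0.00206). These groups did not overlap, and both Ephb4 and Efnb2 had smaller decreases than any of the 20 general endothelial markers. Among arterial markers Gja5 was higher, at 1.76, and the others lay at −1.81 to −1.22, each a larger decrease than those of Ephb4 and Efnb2. Lymphatic markers ranged from −1.74 to 0.37. The part of the endothelial signal in Ephb4 and Efnb2 was not tested. Ephb6, which lacks kinase activity, had 16.2, 42.1, 24.6 and 26.6 CPM in CD249+ libraries, against 4.08, 10.2, 7.05 and 9.48 CPM in CD249− libraries (1.83, SE 0.34, adjusted p = 0.00294). Ephb2 had 6.65, 11.2, 15.9 and 9.35 CPM in CD249+ libraries, against 4.52, 5.57, 2.84 and 5.22 CPM in CD249− libraries (1.25, SE 0.32, adjusted p = 0.0149). Both were apart, and the Ephb2 call was lost without mouse 7 or 8 or the CD249+ library of mouse 8, with adjusted p of 0.0513 to 0.0829. Efnb1 had 307, 178, 166 and 203 CPM in CD249+ libraries, against 488, 250.5, 277 and 311 CPM in CD249− libraries. The groups overlapped and it was not called (−0.63, adjusted p = 0.0799), although it was lower in each of the 4 mice and its adjusted p was 0.000235 with mouse as a block and 0.019 without the CD249+ library of mouse 2. Ephb1 had 0.231 to 1.54 CPM in CD249+ libraries and 1.41 to 6.05 CPM in CD249− libraries and was not called (−1.60, adjusted p = 0.113). Its value was −0.88 without the CD249− library of mouse 8, −0.85 without mouse 8 and −2.195 without mouse 10.

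**Figure D2:**
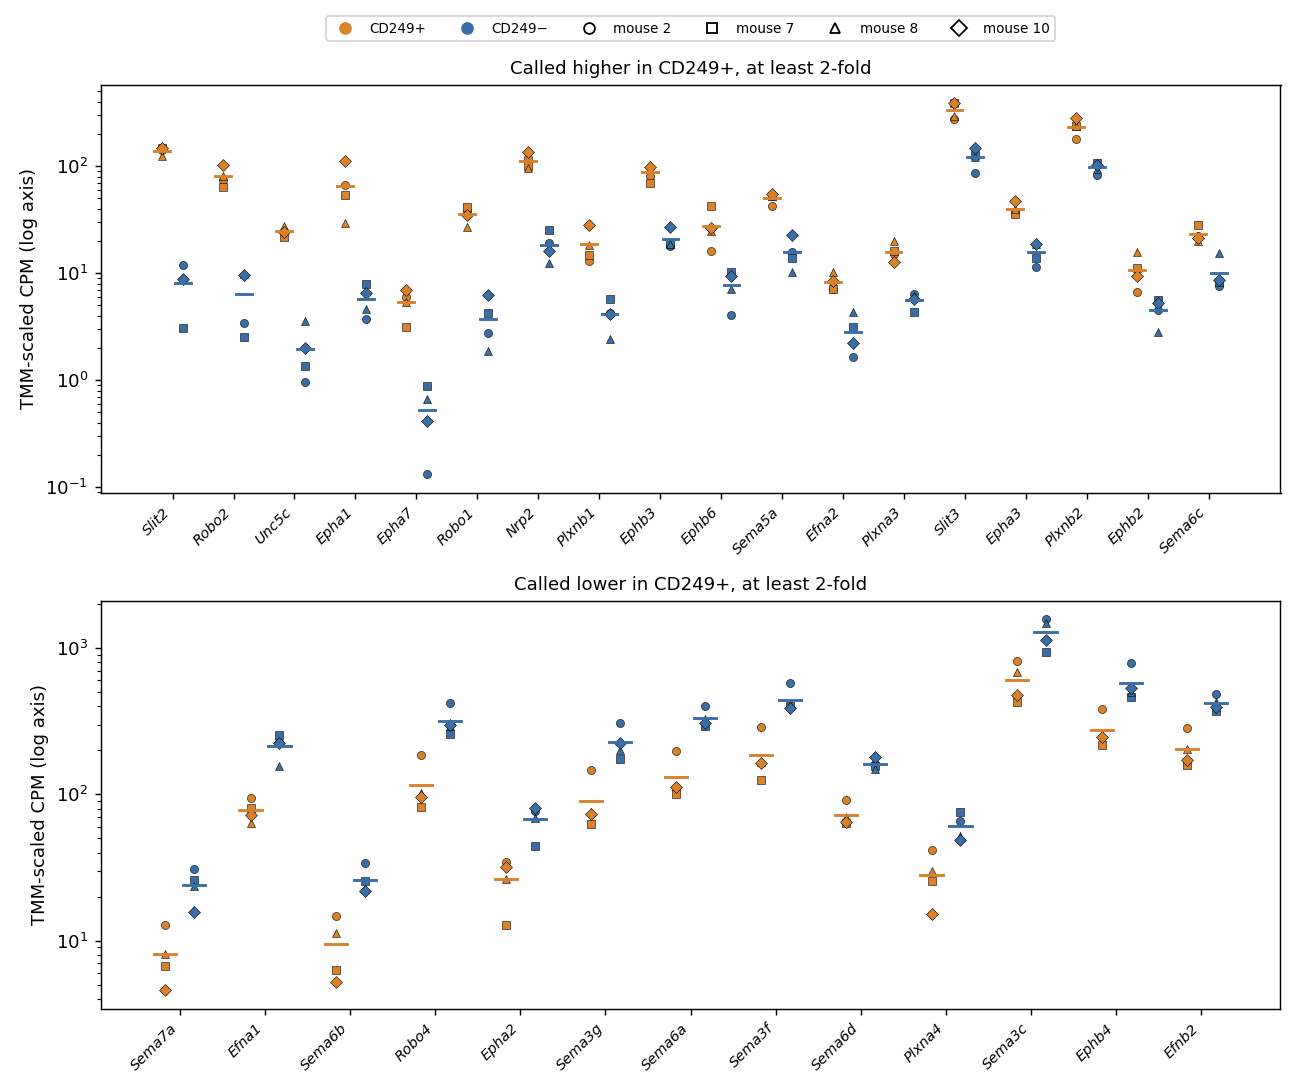
TMM-scaled CPM (log axis) in each library for the 18 higher (top) and 13 lower (bottom) guidance genes that were called, differed at least 2-fold and reached 5 CPM in the higher group. Orange marks CD249+ and blue CD249−, symbols mark the mouse and bars the group mean. Among the lower genes the mouse 2 library (circle) is highest of the CD249+ libraries in every column, and no column has overlapping groups.

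The CD249+ library of mouse 2 stood apart among the lower genes. It was the highest CD249+ library for 16 of the 17 lower genes and for 0 of the 22 higher genes. Its endothelial marker sum was 12340 CPM, against 6359 to 7226 CPM in the other CD249+ libraries, and its pan-fibroblast sum was 16370 CPM, against 27980 to 28670 CPM. In CD249− libraries, mouse 2 was highest for 11 of the 17 lower genes and lowest for 11 of the 22 higher genes, and it had the highest endothelial sum (27550 CPM) and the lowest pan-fibroblast sum (5665 CPM) of its group. Without the CD249+ library of mouse 2, 22 guidance genes were higher and 18 lower. The CD249+ library of mouse 10 was the highest for 11 of the 22 higher genes, and it had the highest alveolar fibroblast sum, at 13280 CPM, and the highest epithelial sum, at 10270 CPM against 529 to 1155 CPM in the other CD249+ libraries. Whether these sums have a part in the order of the libraries was not tested.

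**Figure D3:**
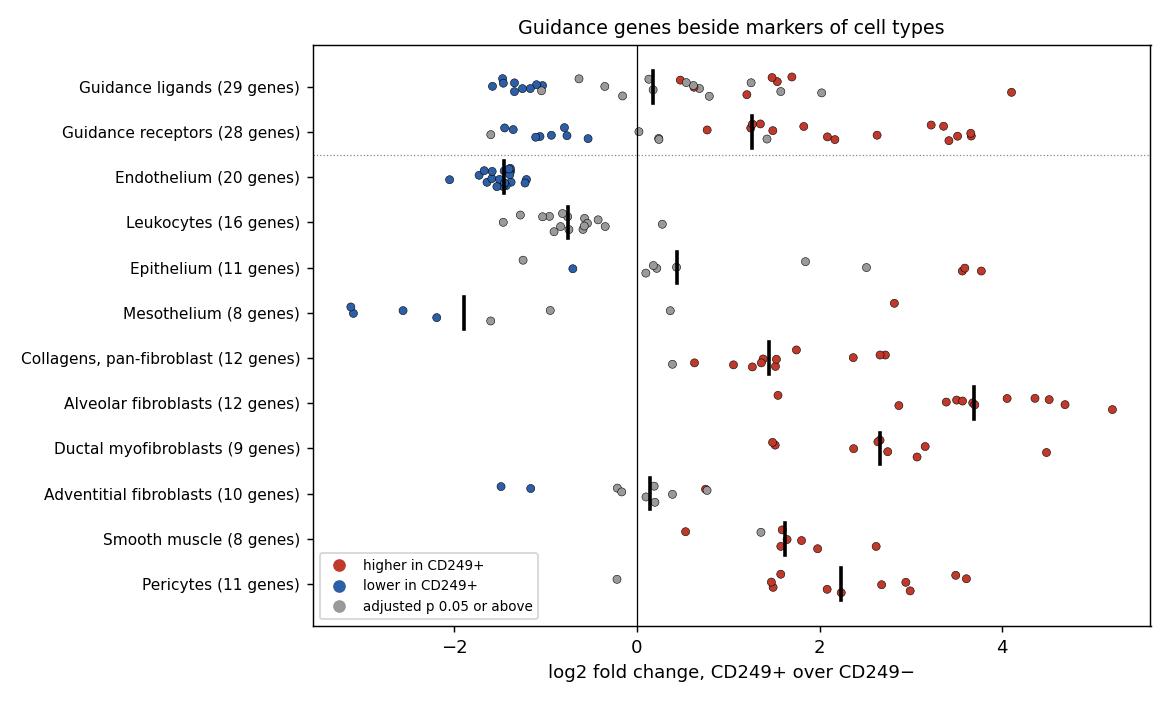
Log2 fold change of CD249+ over CD249− for tested guidance ligands and receptors (top 2 rows) beside marker genes of cell types, each point a gene and each vertical bar the median of its row. All 20 general endothelial markers lie between −2.05 and −1.21, and 8 of the 17 lower guidance genes fall in that range while the other 9 lie nearer to 0. Arterial and lymphatic markers are not shown.

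The decreases of guidance genes overlapped in size with those of endothelial markers. Of the 17 lower genes, 8 had a log2 fold change within the range of the endothelial markers and 9 had a smaller decrease. The median was −1.17 for the lower guidance genes and −1.46 for the endothelial markers. The 22 increases, with a median of 1.76, spanned the sizes seen for ductal myofibroblast markers (median 2.66), pericyte markers (2.24), smooth muscle markers (1.62) and pan-fibroblast genes (1.45), while alveolar fibroblast markers had a median of 3.69. Since the lower and higher genes were chosen by their calls, these medians describe them and test nothing.

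Levels of different genes were compared after division by the length of the longest principal transcript in kb. Whether reads of these oligo(dT)-primed, amplified libraries scale with that length was not tested, so ranks between genes are approximate. In CD249+ cells the ligand with the highest level was Sema3c, at 109 ± 32.8 CPM per kb, followed by Efnb1 at 65.6 ± 19.7, Slit3 at 64.6 ± 11.4 and Ntn4 at 60.0 ± 9.07 CPM per kb (SD, n = 4). The last 3 did not differ beyond their spread. In CD249− cells Sema3c was again first, at 234 ± 53.2 CPM per kb, followed by Efna1 at 146 ± 28.3, Sema3f at 130.3 ± 26.7 and Efnb1 at 102 ± 32.9 CPM per kb (SD, n = 4). Slit3 ranked 3 among 29 ligands in CD249+ cells and 11 in CD249− cells, and Slit2 ranked 12 and 23, with 14.1 ± 1.12 and 0.819 ± 0.373 CPM per kb (SD, n = 4 each).

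The first and second receptors were the same in both fractions. Nrp1 had 191 ± 27.8 CPM per kb in CD249+ cells and 276 ± 45.9 CPM per kb in CD249− cells (SD, n = 4 each). Ephb4 came second, with 63.4 ± 16.7 CPM per kb in CD249+ cells and 132 ± 34.7 CPM per kb in CD249− cells. Robo4 came next, with 36.0 ± 14.7 CPM per kb in CD249+ cells and 98.3 ± 22.4 CPM per kb in CD249− cells. Plxnb2, called higher in CD249+, had 36.0 ± 6.302 CPM per kb in CD249+ cells and 15.0 ± 1.72 CPM per kb in CD249− cells, so it could not be ordered against Robo4 in CD249+ cells. Further ranks changed: Ephb3 ranked 6 of 28 in CD249+ cells and 11 in CD249− cells, Nrp2 ranked 9 and 15, and Robo2 ranked 10 and 19. Nrp2 had 17.8 ± 2.79 CPM per kb in CD249+ cells and 2.87 ± 0.839 CPM per kb in CD249− cells, and Robo2 had 13.5 ± 2.69 and 1.06 ± 0.655 CPM per kb. Thus Nrp1 and Ephb4, first and second in both fractions, were lower in CD249+, while Robo2, with a large increase, ranked low in CD249− cells.

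**Figure D4:**
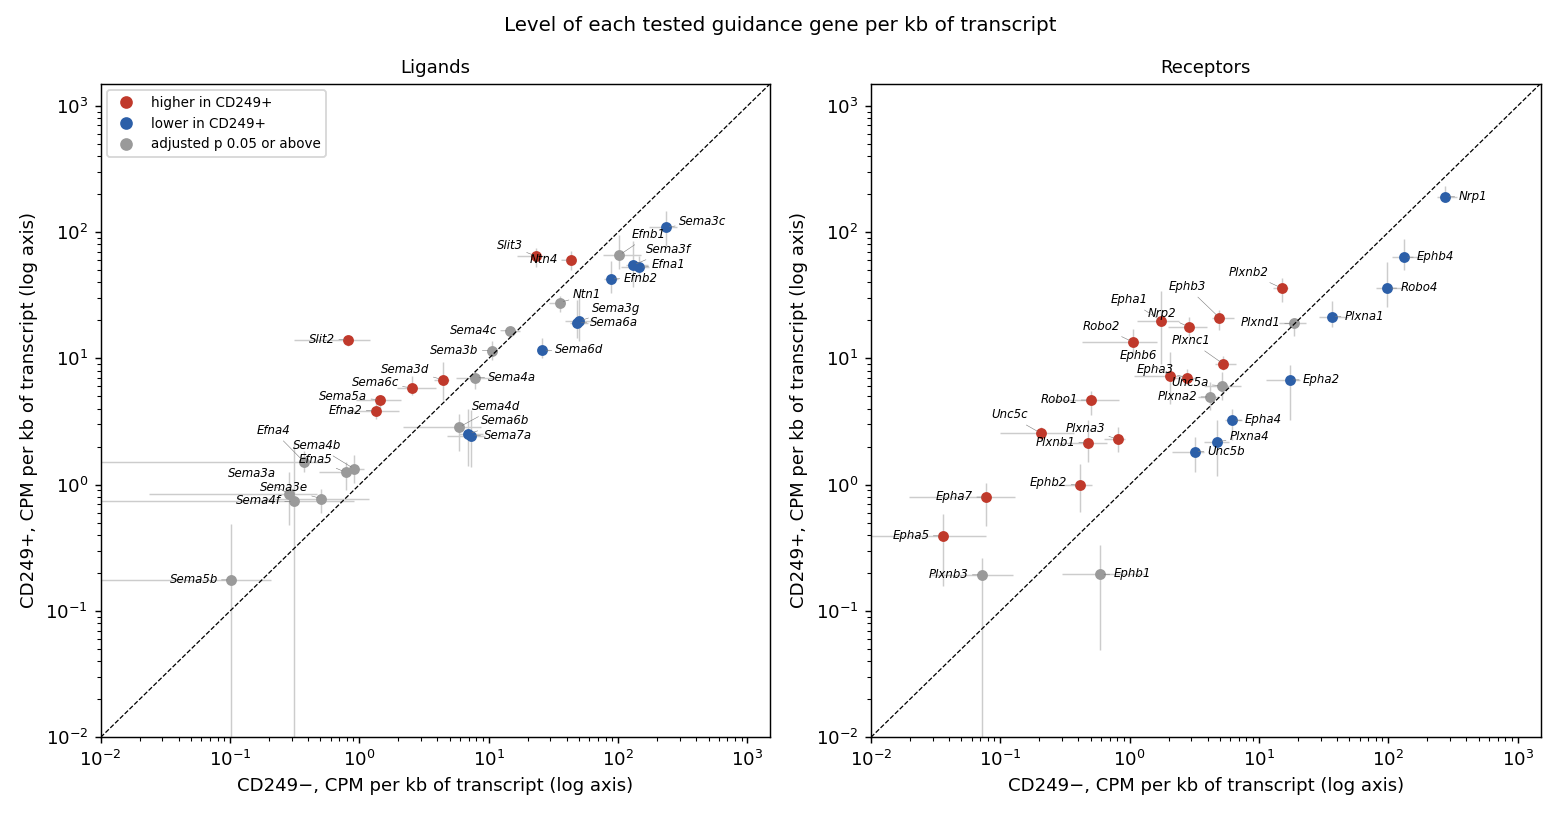
CPM per kb of transcript in CD249+ (vertical, log axis) against CD249− (horizontal, log axis) for 29 tested ligands (left) and 28 tested receptors (right), as group means with bars from the lowest to the highest library. Bars that reach 0 run off the axis, and the dashed line marks equal levels. Nrp1, Ephb4 and Robo4 lie below the line at the upper end, whereas Robo2, Unc5c, Epha7 and Slit2 lie far above it.

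Other genes of the same pathways, co-receptors, further ligands and cytoplasmic effectors, were called about as often in each direction. Of 66 such genes, 58 were tested, of which 16 were higher, 13 were lower and 29 were not called, with a median log2 fold change of −0.12. The called share was 50%, beside 30.8% of all genes tested. Within mice 2 and 10 alone 8 were higher and 0 lower, and within mice 7 and 8 alone 14 were higher and 10 lower. The genes named below are up to 4 of each group with the smallest p.

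In the netrin, repulsive guidance molecule and latrophilin group, 3 of 11 tested genes were higher and 2 lower. The called share was 45.5%, beside 30.8% of all genes tested. Neo1 encodes neogenin, a receptor of netrins and repulsive guidance molecules, and had 165, 148, 173.5 and 199 CPM in CD249+ libraries, against 15.3, 18.5, 17.02 and 26.4 CPM in CD249− libraries (3.15, SE 0.18, adjusted p = 4.15e-06). Rgma, a ligand of neogenin, had 14.0, 15.8, 9.84 and 11.5 CPM in CD249+ libraries, against 0.731, 2.70, 2.80 and 2.67 CPM in CD249− libraries (2.52, SE 0.40, adjusted p = 0.00116). The latrophilins Adgrl1 (−0.84) and Adgrl2 (−1.25) were lower. Dcc, the other classical netrin receptor, was at a count of 0 in all 8 libraries, and was named after its values were seen.

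Among 24 tested semaphorin partners 8 were higher and 6 lower, a called share of 58.3% beside 30.8% of all genes tested. Plxdc2, a plexin domain protein whose part in semaphorin signalling was not tested, had 918, 929.9, 843 and 1082 CPM in CD249+ libraries, against 134, 194, 156 and 222 CPM in CD249− libraries (2.42, SE 0.17, adjusted p = 1.09e-05). Nrcam, an adhesion molecule that associates with neuropilins, had 35.2, 54.5, 47.4 and 80.7 CPM in CD249+ libraries, against 1.79, 1.261, 2.88 and 8.34 CPM in CD249− libraries. Its log2 fold change was 3.92 (SE 0.56, adjusted p = 0.000616). Leaving out CD249− cells of mouse 10, where Nrcam was highest of its group, gave 4.79. The effectors Farp1 (1.67) and Dpysl3 (1.07) were also higher. The 6 lower genes, Itga1, Fes, Arhgef12, Kdr, Mical2 and Rnd1, had larger p and were named after their values were seen.

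Of 11 Slit and Robo partners 2 were higher and 1 was lower. Gpc1, a heparan sulphate proteoglycan that binds Slits, had 100.4, 126, 93.1 and 132 CPM in CD249+ libraries, against 7.97, 14.8, 17.2 and 10.7 CPM in CD249− libraries (3.16, SE 0.24, adjusted p = 1.6e-05). Enah, an actin regulator that binds Robo1, had 11.6, 11.4, 9.02 and 9.28 CPM in CD249+ libraries, against 1.63, 1.89, 1.75 and 1.499 CPM in CD249− libraries (2.61, SE 0.24, adjusted p = 4.77e-05). Srgap2, a GTPase-activating protein of the Robo pathway, was lower (−0.50, adjusted p = 0.0186), and Evl was not called (−0.41, adjusted p = 0.0517; 0.0355 without the CD249− library of mouse 2). The called share of these partners was 27.3%, beside 30.8% of all genes tested, and 8 of the 11 were not called.

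Of 12 Eph and ephrin partners 3 were higher and 4 lower, a called share of 58.3% beside 30.8% of all genes tested. The exchange factors Vav2 (1.23), Itsn1 (0.97) and Ngef (2.25), which act downstream of Eph receptors on small GTPases, were higher. Vav3, an exchange factor related to Vav2 and named after its values were seen, was lower, with 26.1, 8.32, 21.9 and 13.5 CPM in CD249+ libraries, against 60.7, 52.9, 56.6 and 44.95 CPM in CD249− libraries (−1.62, SE 0.30, adjusted p = 0.00292). The exchange factors Tiam1 (0.08) and Kalrn (−0.22) were not called. The adaptor Nck1 was lower (−0.58, adjusted p = 0.00116).

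The 10 untested genes had few counts. Epha6 had none in any library, and Epha10, Slit1, Epha8 and Unc5d had counts in 1 library each, with a highest count of 2, 4, 25 and 18. The highest count was 9 for Efna3, 14 for Efnb3, 21 for Ntn5, 24 for Sema4g and 36 for Robo3. A count of 0 or a few at these totals does not show that a gene was off. In GENCODE M21, 17 of the 67 genes share exon bases with another gene, so that reads over those bases can come from either. Among the called genes these were Epha1, Ephb4, Nrp1, Plxna1, Plxna4, Plxnb1, Plxnc1 and Unc5c, with 33 shared bases for Ephb4, 236 for Epha1 and 970 for Plxna1.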

How the data were processed

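RNA of 8 libraries, from 4 mice with a CD249+ and a CD249− fraction each, was reverse transcribed from oligo(dT) with an input of 10 ng, amplified, and sequenced as single reads of 75 bp, per the labels' protocols. The authors deposited 1 table of estimated counts per gene (expected counts, of which 12% are not whole), and its columns were matched to samples through the sample descriptions. Tools listed in the submitters' processing notes, with no roles stated, are STAR 2.6.1, RSEM 1.2.28, bcl2fastq 2.20, R 3.6.3 and DESeq2 1.26.0. The build used for the mouse identifiers is not given in these sources. All 92 spike-in entries were at 0 and were left out. Such libraries carry no strand information and no molecular identifiers, so PCR copies count as reads.

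Here the counts were rounded, filtered with filterByExpr (14524 of 18552 genes with any count), scaled by TMM and tested two-sided for the effect of group by the quasi-likelihood F test of edgeR 4.0.16 (R 4.3.3). P-values were adjusted by Benjamini-Hochberg across the genes tested. SE is the log2 fold change divided by the square root of F. Same-mouse libraries deviated together (correlation 0.132 to 0.285 across genes, 4 pairs, against −0.212 to 0.0515 between different mice, 12 pairs) and came from the same lung, so mouse numbers pair them, and mouse as a block was an alternative. Other alternatives used limma 3.58.1 (voom), DESeq2 1.42.0, other scalings and filters, and fewer libraries. Coordinates and lengths (longest principal transcript) are from GENCODE M21 on GRCm38, where all 67 identifiers matched by Ensembl number, 47 with the same version. Promoter windows are from RefSeq.

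The members, the partner and marker lists and the tests were chosen with earlier results of these data known. Values in every library are given for guidance genes that were called, differed at least 2-fold and had at least 5 CPM in the higher group, and for main partners of these with at least 20 CPM. A few further genes get all values because their call depends on a setting.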

Additional observations from a re-analysis of the deposited data

Results flagged for a closer look

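Of 114 groups of 4 libraries examined, one for each fraction of each tested guidance gene, 10 had a library far from the other 3. Chance gives about 1 in 20. Values are in CPM.

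In CD249+ cells, Nrp1 stood at 835 in mouse 2, against 625 to 642 in the other mice. Sema3g stood at 147.2 in mouse 2, against 62.3 to 75.4. Sema6a stood at 199.3 in mouse 2, against 100.1 to 114. Plxnb3 stood at 0 in mouse 10, against 1.52 to 1.59.

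In CD249− cells, Sema3f stood at 578.3 in mouse 2, against 391 to 400.1 in the other mice. Sema4c stood at 67.54 in mouse 2, against 52.4 to 54.6, and Efna5 stood at 1.959 in mouse 2, below 3.40 to 3.69. Ephb3 stood at 27.02 in mouse 10, against 18.1 to 18.9. Ephb1 stood at 6.048 in mouse 8, against 1.41 to 1.89, and Sema6c stood at 15.48 in mouse 8, against 7.64 to 8.61. Mouse 2 thus gave 6 of the 10, in libraries whose endothelial marker sums were 12340 CPM (CD249+) and 27550 CPM (CD249−), each the highest of its fraction. Whether that sum has a part in these values was not tested.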

How the results depend on the processing

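Over 22 alternative settings, none of the 39 called guidance genes changed direction. With fewer libraries this could hardly come out otherwise, since each gene had the same direction in all 4 mice. Of the 39, 31 kept their call in every setting other than the fits of 2 mice. Those fits had 2 libraries a group: mice 2 and 10 alone gave 9 higher and 2 lower guidance genes, and 8 higher and 0 lower partners. Leaving out 1 library or 1 mouse gave 18 to 23 higher and 14 to 18 lower guidance genes, and 14 to 16 higher and 10 to 14 lower partners. Over all genes these settings gave 1777 to 2479 higher and 1201 to 1979 lower. With mouse as a block the counts of guidance genes were 22 and 19, since Efnb1 (−0.63) and Sema4d (−0.93) were called. The block changed no other call among guidance genes. Over all genes it gave 2809 higher and 2489 lower, against 2455 and 2013 without it. Reversed values occurred in uncalled genes. Plxnd1 was −0.073 by library size only and −0.031 in mice 7 and 8 alone, and −0.091 to 0.14 with libraries left out. Epcam was −0.11 with the block, −0.003 by library size only, −0.12 by limma-voom, −0.72 in mice 7 and 8 alone, and −0.35 to 0.41 with libraries left out. Sema4a was 0.16 in mice 2 and 10 alone and −0.29 to 0.042 with libraries left out, Sema4f was −0.65 in mice 7 and 8 alone and −0.50 to 2.73, and Sema5b −0.84 to 1.84. The cause was not tested. Epha5, Plxnb3, Sema4f and Sema5b gave no value under the filter of at least 1 CPM in 4 libraries, nor did Sema5b without mouse 8 or in mice 2 and 10 alone. Genes under about 1 CPM, such as Epha5 in CD249− cells, rest on few counts.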

Other observations

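Some guidance genes lie close together in GRCm38. Robo1 and Robo2 lie 846 kb apart on chromosome 16 and both were higher in CD249+ (3.22 and 3.66). Ephb6 and Epha1 lie 738 kb apart on chromosome 6 and both were higher (1.83 and 3.51). Ntn4 and Plxnc1 lie 1044 kb apart on chromosome 10 and both were higher (0.48 and 0.77). Neighbours also differed: Sema3b and Sema3f lie 72 kb apart on chromosome 9, where Sema3b was not called (0.13) and Sema3f was lower (−1.25), and 1385 kb further on Plxnb1 was higher (2.17). Robo4, lower in CD249+ (−1.45), lies 554 bases from Robo3, which had too few counts to test. On chromosome 3, Efna1 was lower (−1.47), Efna3 lies 33 kb from it and was not tested, and Efna4 lies 10 kb beyond Efna3 and was not called (2.02). These pairs were picked after their values were seen.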
